A study of Mus musculus with 12 samples.

Results

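The genes described here are 33 genes of DNA repair and the DNA damage checkpoint, chosen by name for their known roles in homologous recombination, the Fanconi pathway, mismatch repair, end joining and the checkpoint, and looked up by symbol. All 33 were present among the 14398 genes of the count table and all 33 passed the filter on low counts that left 14266 genes for testing. They were divided by general knowledge of the cell cycle into 15 genes usually transcribed with S phase (Brca1, Brca2, Bard1, Rad51ap1, Rad54l, Rad54b, Blm, Exo1, Fanca, Fancb, Fancd2, Fanci, Chek1, Xrcc2 and Msh6) and 18 genes usually held at a constant level (Palb2, Rad50, Mre11a, Nbn, Fancc, Chek2, Atm, Atr, Atrip, Xrcc1, Xrcc3, Xrcc5, Xrcc6, Pms2, Parp1, Parp2, Trp53 and Mdm2). The members and classes were chosen with earlier results of these data known, so the classes are not independent of the data. The measurements are poly(A) RNA sequencing of adipocyte precursor cells, the fibroblast-like cells of fat tissue that give rise to fat cells. There were 4 groups of 3 libraries each, and all mice were male C57Bl6/J, with no transgene or mutant allele named in the labels. VWAT_HFD was perigonadal (visceral) fat of mice given a 60% lard high-fat diet for 3 days, and VWAT_SD was the same depot on the standard diet. SWAT_HFD and SWAT_SD were the inguinal (subcutaneous) depot on the same diets. The labels give the mice as 6 to 8 weeks old, the HFD libraries as day 3 and the SD libraries as day 0, so the day and the diet cannot be told apart. Each library pooled the tissue of 3 mice, and the cells were sorted as negative for CD45 and CD31, positive for CD29, CD34 and Sca1, and either negative or positive for CD24.

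DNA breaks that arise while a chromosome is being copied are mended mainly by homologous recombination, in which the broken end is trimmed back and paired with the sister copy. The Fanconi proteins act on crosslinked strands that block the replication fork and pass the resulting break to the same machinery, while the kinases ATR and CHEK1 hold the cell cycle until copying is complete. Other repair proteins, such as the Ku end-joining pair, the single-strand break factors and the ATM to p53 signalling line, serve resting and dividing cells alike, and many cells keep their transcripts at a steady level. Adipocyte precursors of the mouse are known to start dividing within days of a high-fat diet, mainly in visceral fat.

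Gene counts came to 17.6 M to 56.1 M per library (M, 1e+06), and the 33 genes together took 0.0300 to 0.0436% of them, so the lowest members rest on few reads. The gate markers Ly6a (Sca1), Cd34 and Itgb1 (CD29) and the precursor marker Pdgfra were all abundant, at 386 to 1630 CPM (counts per 1e+06 counts, scaled by TMM) over the 12 libraries, and Cd24a lay at 1.72 to 4.33 CPM in VWAT and 10.6 to 19.6 CPM in SWAT. The defining leukocyte marker Ptprc lay between 0.129 and 0.656 CPM in 11 libraries and at 6.93 CPM in SWAT_HFD replicate 2, in which the leukocyte list summed to 46.8 CPM against 7.72 to 21.0 CPM elsewhere. VWAT_HFD replicate 3 stood apart from its group in the genes of cell division: the mean log2 CPM of 30 mitosis genes was 2.38 there, while replicates 1 and 2 had 3.82 and 4.44, and VWAT_SD had 0.55 to 0.98. It was also low in the endothelial markers, with a mean log2 CPM of -0.11 where replicates 1 and 2 had 2.35 and 1.64. Replicate 3 of VWAT_SD and of SWAT_SD had 0.72 and 0.28. Summed, these markers differed less, at 187 CPM in VWAT_HFD replicate 3 and 233 and 200 CPM in replicates 1 and 2. Counts of called members that rest on VWAT_HFD replicate 3 are given with and without it, while log2 changes are from the fit of all 12 libraries unless stated.

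The S-phase-coupled genes were the lower class in every group. Per kilobase of annotated exon, the S-phase-coupled genes had a median of 0.511 CPM in VWAT_HFD, 0.210 in VWAT_SD, 0.274 in SWAT_HFD and 0.190 in SWAT_SD. The constant genes had medians of 2.61, 2.46, 2.46 and 2.66 CPM per kilobase in VWAT_HFD, VWAT_SD, SWAT_HFD and SWAT_SD, in that order. On this length scale Trp53, Mdm2 and Nbn were the highest members in every group, Msh6 was the highest S-phase-coupled gene, and Exo1, an exonuclease, was the lowest member in every group. In VWAT_HFD the mean log2 CPM over the 15 S-phase-coupled genes was 1.78, 2.17 and 1.26 by library, against 0.52, 0.74 and 0.64 in VWAT_SD. In SWAT_HFD it was 0.87, 1.01 and 1.05, against 0.13, 0.42 and 0.46 in SWAT_SD. The 2 diets did not overlap on this scale in either depot. Over the 18 constant genes the same mean stayed between 3.63 and 3.79 in all 12 libraries.

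**Figure D1:**
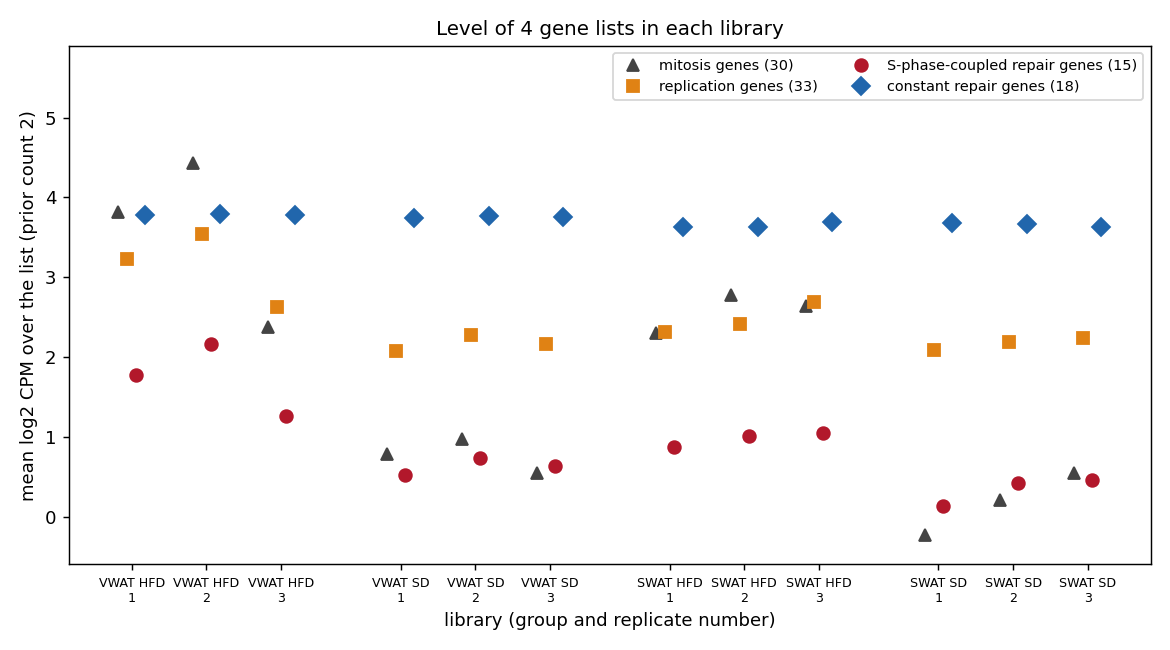
Mean log2 CPM of 4 gene lists (y axis, prior count of 2) in each of the 12 libraries (x axis, group and replicate number), 1 symbol per list and library. The constant repair genes stay between 3.63 and 3.79 in every library, while the S-phase-coupled repair genes, the replication genes and the mitosis genes are higher on HFD in each depot, and VWAT_HFD replicate 3 lies below the other VWAT_HFD libraries in these 3 lists.

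Promoters are shown for 4 members because most, though not all, members of the S-phase-coupled class rose on HFD in visceral precursors. Whether promoter letters have a part in this was not tested. Windows of 250 bases before to 50 bases after the annotated start were taken from RefSeq (GRCm38.p6), where 27 of the 33 members had a window, Rad54l with 2 starts (not Rad54b, Exo1, Fancd2, Xrcc2, Rad50 or Nbn). An E2F-type motif (TTTCCCGC, TTTGGCGC, TTTCGCGC or TTTGCCGC, either strand) was found in 3 of 12 windows of S-phase-coupled genes (25.0%; Brca2, Bard1 and Msh6), in 2 of 16 windows of constant genes (12.5%; Chek2 and Xrcc6) and in 2.26% of all 32851 windows. A CHR-type motif (TTTGAA or TTCGAA, either strand) was in 1 of 12, 1 of 16 and 19.2% of them. The CCAAT box (CCAAT, either strand) was in 8 of 12 (66.7%), 13 of 16 (81.2%) and 37.4%. In the members' windows no match of a motif overlapped that of a different motif, and a match describes the letters only. The capitals mark the E2F-type match in Bard1 (chr1:71102923-71103222, minus strand), Chek2 (chr5:110839733-110840032, plus strand) and Msh6 (chr17:87974800-87975099, plus strand), and the CCAAT box in Brca1 (chr11:101551906-101552205, minus strand). Bard1 and Chek2 are a called member of each class, Msh6 holds the same 8 letters and was not called, and Brca1, with the lowest adjusted p of all members, has no E2F-type match in its window.
Bard1: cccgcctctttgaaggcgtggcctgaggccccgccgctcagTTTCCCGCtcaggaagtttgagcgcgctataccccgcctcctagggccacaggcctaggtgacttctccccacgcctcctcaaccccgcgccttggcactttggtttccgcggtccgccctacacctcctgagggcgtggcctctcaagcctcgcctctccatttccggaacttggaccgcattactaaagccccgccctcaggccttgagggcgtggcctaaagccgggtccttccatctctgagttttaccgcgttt
Chek2: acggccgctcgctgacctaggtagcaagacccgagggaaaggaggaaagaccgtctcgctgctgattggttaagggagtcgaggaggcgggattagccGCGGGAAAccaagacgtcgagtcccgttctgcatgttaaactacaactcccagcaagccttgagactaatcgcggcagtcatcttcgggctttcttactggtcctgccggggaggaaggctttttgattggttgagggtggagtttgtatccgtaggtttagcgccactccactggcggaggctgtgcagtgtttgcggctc
Msh6: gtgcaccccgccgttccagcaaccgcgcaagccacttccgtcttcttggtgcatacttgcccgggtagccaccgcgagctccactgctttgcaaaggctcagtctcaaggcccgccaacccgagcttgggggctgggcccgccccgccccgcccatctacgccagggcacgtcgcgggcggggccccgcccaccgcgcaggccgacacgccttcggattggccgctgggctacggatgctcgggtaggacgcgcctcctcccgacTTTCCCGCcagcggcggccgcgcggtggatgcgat
Brca1: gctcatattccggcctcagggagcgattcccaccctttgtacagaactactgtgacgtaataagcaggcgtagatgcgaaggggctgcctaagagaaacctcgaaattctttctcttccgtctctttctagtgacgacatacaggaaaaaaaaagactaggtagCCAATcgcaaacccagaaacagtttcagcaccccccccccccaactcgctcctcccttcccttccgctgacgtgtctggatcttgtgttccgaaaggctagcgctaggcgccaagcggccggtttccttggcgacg

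In visceral precursors, 11 of the 15 S-phase-coupled genes rose on HFD and none fell, whereas 2 of the 18 constant genes rose (Parp1 and Chek2) and none fell. Over all genes tested, 15.6% were called in this comparison, 8.64% as higher and 6.98% as lower in VWAT_HFD (edgeR quasi-likelihood test, adjusted p under 0.05). The median log2 change was 1.29 over the S-phase-coupled genes, 0.013 over the constant genes and -0.017 over all genes tested. Each of the 11 called S-phase-coupled genes had all 3 VWAT_HFD libraries above all 3 VWAT_SD libraries, which 15.5% of all genes showed. In these pooled cells, fewer cells of a type and less RNA per cell cannot be told apart. All 30 mitosis genes and 23 of 33 replication genes also rose. Of the cell type markers, 3 of 10 mural markers rose and 2 fell, 3 of 10 precursor and gate markers rose, 1 of 9 leukocyte and 1 of 8 mesothelial markers fell, and none of 10 endothelial markers was called, and the part of any of these lists in the repair genes was not tested. The summed leukocyte markers were 7.72 to 10.8 CPM in VWAT_HFD, against 12.1 to 21.0 CPM in VWAT_SD, and the summed endothelial markers were 187 to 233 CPM in VWAT_HFD, against 195 to 251 CPM in VWAT_SD. The summed mural markers were 127 to 168 CPM in VWAT_HFD, against 136 to 164 CPM in VWAT_SD.

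**Figure D2:**
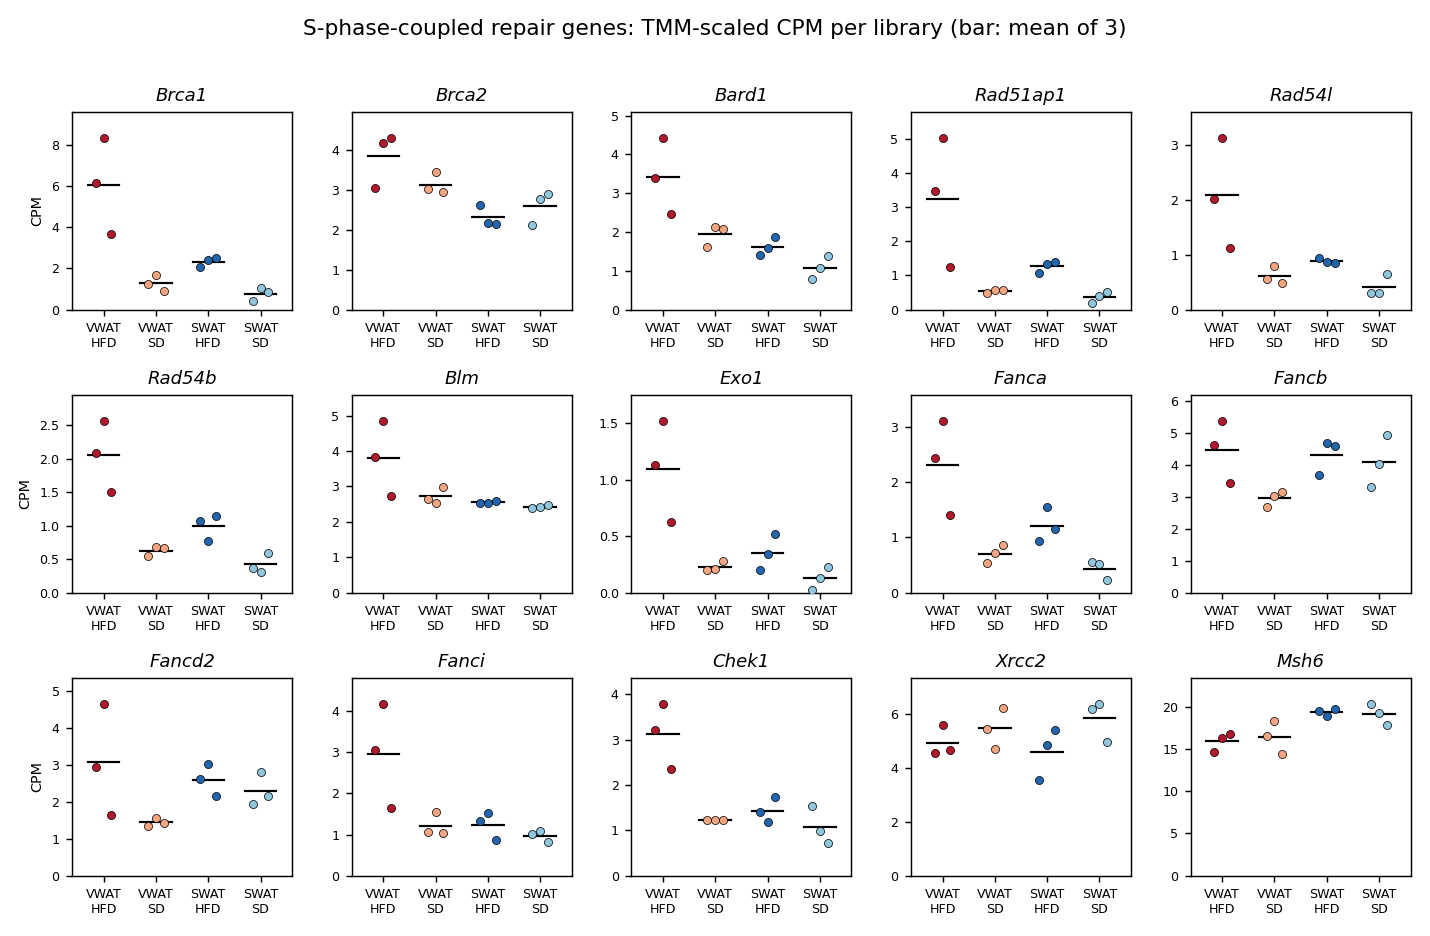
TMM-scaled CPM of the 15 S-phase-coupled genes (y axis, linear from 0, a scale of its own for each gene) in the 4 groups (x axis), with 1 point per library and a bar at the mean of 3. For 11 genes every VWAT_HFD point lies above every VWAT_SD point, and replicate 3 is the lowest VWAT_HFD point in 12 of 15 genes.

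The BRCA complex prepares a processed break for recombination. Brca1, the ubiquitin ligase that opens recombination, had 6.17, 8.37 and 3.68 CPM in VWAT_HFD libraries, against 1.22, 1.69 and 0.923 CPM in VWAT_SD libraries. Every VWAT_HFD library lay above every VWAT_SD library, replicate 3 being the lowest of its group. The log2 change was 2.25 (SE 0.33, adjusted p = 0.00133), a 4.76-fold difference. Bard1, the partner that stabilises BRCA1, had 3.39, 4.43 and 2.45 CPM in VWAT_HFD, against 1.60, 2.14 and 2.09 CPM in VWAT_SD. It rose 1.77-fold (log2 change 0.82, SE 0.24, adjusted p = 0.0348), with a narrow gap between the groups. Brca2, which works beside BRCA1 in recombination, had 3.03, 4.15 and 4.30 CPM in VWAT_HFD, against 3.01, 3.43 and 2.94 CPM in VWAT_SD, and the groups overlapped (log2 change 0.29, adjusted p = 0.268). Palb2, the bridge between BRCA1 and BRCA2, had 1.21, 1.0 and 1.05 CPM in VWAT_HFD, against 0.986, 1.10 and 1.14 CPM in VWAT_SD, again with overlap (log2 change 0.021, adjusted p = 0.957).

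Rad51ap1, Rad54l and Rad54b, whose products promote strand exchange, all rose. Rad51ap1, which stimulates strand pairing, had 3.47, 5.06 and 1.25 CPM in VWAT_HFD, against 0.493, 0.571 and 0.572 CPM in VWAT_SD. The VWAT_HFD libraries spread widely but all lay above the VWAT_SD libraries, and the log2 change of 2.58 (SE 0.42, adjusted p = 0.00208) was the highest of the 33 members. Rad54l, a motor protein of recombination, had 2.0, 3.13 and 1.12 CPM in VWAT_HFD, against 0.561, 0.783 and 0.480 CPM in VWAT_SD. Its homologue Rad54b had 2.09, 2.57 and 1.51 CPM in VWAT_HFD, against 0.544, 0.677 and 0.665 CPM in VWAT_SD. Both were separated by diet, with log2 changes of 1.78 (SE 0.36, adjusted p = 0.00619) for Rad54l and 1.71 (SE 0.27, adjusted p = 0.00170) for Rad54b. Reads of these genes are uncertain to the extent that their exons overlap a neighbour, Lrrc41 for 15.4% of Rad54l and Fsbp for 35.8% of Rad54b. The recombination genes Xrcc2 and Xrcc3 were not called, at 4.93 ± 0.585 CPM in VWAT_HFD and 5.45 ± 0.762 CPM in VWAT_SD for Xrcc2 (SD over 3 libraries). For Xrcc3 the means were 5.03 ± 0.711 CPM in VWAT_HFD and 5.0 ± 0.460 CPM in VWAT_SD, and the log2 changes were -0.15 for Xrcc2 (adjusted p = 0.581) and 0.0088 for Xrcc3 (adjusted p = 0.980).

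Among the genes that trim and unwind broken ends, Exo1, the exonuclease of long-range resection, had 1.13, 1.52 and 0.624 CPM in VWAT_HFD, against 0.204, 0.212 and 0.277 CPM in VWAT_SD. The groups were well apart, and Exo1 rose 4.70-fold (log2 change 2.23, SE 0.46, adjusted p = 0.00715). Blm, the RecQ helicase that works with it, averaged 3.81 ± 1.06 CPM in VWAT_HFD and 2.73 ± 0.235 CPM in VWAT_SD (SD, n = 3 each). Its log2 change of 0.48 did not pass (adjusted p = 0.0900), and VWAT_HFD replicate 3 lay within the VWAT_SD range. The break-sensing complex of Mre11a, Rad50 and Nbn was not called in any of its members. Rad50 had the lowest log2 change of the 33 members, with 23.8 ± 2.95 CPM in VWAT_HFD and 28.7 ± 1.99 CPM in VWAT_SD (SD) and a log2 change of -0.28 (adjusted p = 0.0789). The changes of its partners were 0.018 for Mre11a and 0.12 for Nbn.

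In the Fanconi pathway 4 of 5 members rose. Fanca, part of the core ubiquitin ligase, had 2.44, 3.11 and 1.40 CPM in VWAT_HFD, against 0.527, 0.719 and 0.868 CPM in VWAT_SD. Fanci, which the core complex modifies, had 3.05, 4.17 and 1.63 CPM in VWAT_HFD, against 1.05, 1.54 and 1.03 CPM in VWAT_SD. Both separated the diets, with log2 changes of 1.72 (SE 0.33, adjusted p = 0.00479) for Fanca and 1.29 (SE 0.31, adjusted p = 0.0158) for Fanci. Their exons overlap those of Zfp276 (10.5% of Fanca) and Polg (16% of Fanci), so their values are uncertain. Fancd2, the partner of FANCI, had 2.95, 4.65 and 1.66 CPM in VWAT_HFD, against 1.36, 1.57 and 1.44 CPM in VWAT_SD. VWAT_HFD replicate 3 lay just above the highest VWAT_SD library, and the log2 change was 1.09 (SE 0.30, adjusted p = 0.0285). The X-linked core gene Fancb had 4.63, 5.40 and 3.44 CPM in VWAT_HFD, against 2.69, 3.05 and 3.16 CPM in VWAT_SD. Its change was smaller and nearest to the threshold (log2 change 0.60, SE 0.19, adjusted p = 0.0470). Fancc, a core gene of the constant class, had 16.2 ± 1.28 CPM in VWAT_HFD and 15.5 ± 1.55 CPM in VWAT_SD (SD), a log2 change of 0.058 (adjusted p = 0.749), and 16.4% of its exon bases overlap the antisense gene Gm16133.

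Both effector kinases of the checkpoint rose, and the kinases upstream of them were not called. Chek1, the effector kinase of the replication checkpoint, had 3.22, 3.79 and 2.34 CPM in VWAT_HFD, against 1.22, 1.23 and 1.24 CPM in VWAT_SD. The VWAT_SD libraries were almost equal and all VWAT_HFD libraries lay above them, a 2.54-fold rise (log2 change 1.34, SE 0.25, adjusted p = 0.00425). Chek2, the effector kinase that acts after ATM, had 4.33, 5.10 and 3.31 CPM in VWAT_HFD, against 2.58, 2.58 and 2.73 CPM in VWAT_SD. It was 1 of the 2 constant genes that rose, 1.61-fold (log2 change 0.69, SE 0.17, adjusted p = 0.0159). Atm, the kinase that answers to broken ends, had 14.6, 15.2 and 19.5 CPM in VWAT_HFD, against 20.1, 18.6 and 14.3 CPM in VWAT_SD, with full overlap (log2 change -0.11, adjusted p = 0.705). Atr, which answers to single-stranded DNA, and its partner Atrip had log2 changes of -0.24 (adjusted p = 0.177) and -0.19 (adjusted p = 0.221), and 16% of Atrip exon bases overlap Trex1.

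Repair outside recombination showed 1 call. Parp1, the enzyme that marks single-strand breaks with poly(ADP-ribose), had 32.3, 35.1 and 30.2 CPM in VWAT_HFD, against 24.5, 25.3 and 24.9 CPM in VWAT_SD. The 3 VWAT_HFD libraries lay above the tightly grouped VWAT_SD libraries, and the rise was small (1.30-fold, log2 change 0.38, SE 0.081, adjusted p = 0.00843). Its relative Parp2 and the scaffold Xrcc1 had log2 changes of -0.13 and -0.090, neither called (adjusted p = 0.410 and 0.544). Msh6, which recognises mismatches, had 14.6, 16.3 and 16.8 CPM in VWAT_HFD, against 16.5, 18.3 and 14.4 CPM in VWAT_SD. The groups overlapped fully, with a log2 change of -0.043 (SE 0.10, adjusted p = 0.808), although Msh6 stands in the S-phase-coupled class. Pms2, a mismatch repair gene, had a log2 change of -0.26 (adjusted p = 0.105), with all VWAT_HFD libraries below all VWAT_SD libraries, which 17.5% of genes showed. Of the Ku pair, which binds ends for direct joining, Xrcc6 had 12.7, 13.1 and 11.5 CPM in VWAT_HFD, against 10.9, 10.9 and 12 CPM in VWAT_SD, with overlap. The log2 changes were 0.15 for Xrcc6 (adjusted p = 0.331) and -0.025 for its partner Xrcc5 (adjusted p = 0.897).

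Trp53, which encodes the p53 transcription factor, had 49.8, 57.5 and 52.4 CPM in VWAT_HFD, against 46, 45.9 and 48.9 CPM in VWAT_SD. The groups lay side by side without overlap, as in 15.5% of all genes. The log2 change of 0.18 (SE 0.089) was not called (adjusted p = 0.179). Mdm2, the p53 ubiquitin ligase and itself a p53 target, had 50.2, 53.3 and 59.1 CPM in VWAT_HFD, against 51, 50.7 and 44.1 CPM in VWAT_SD, with overlap (log2 change 0.16, adjusted p = 0.278).

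**Figure D3:**
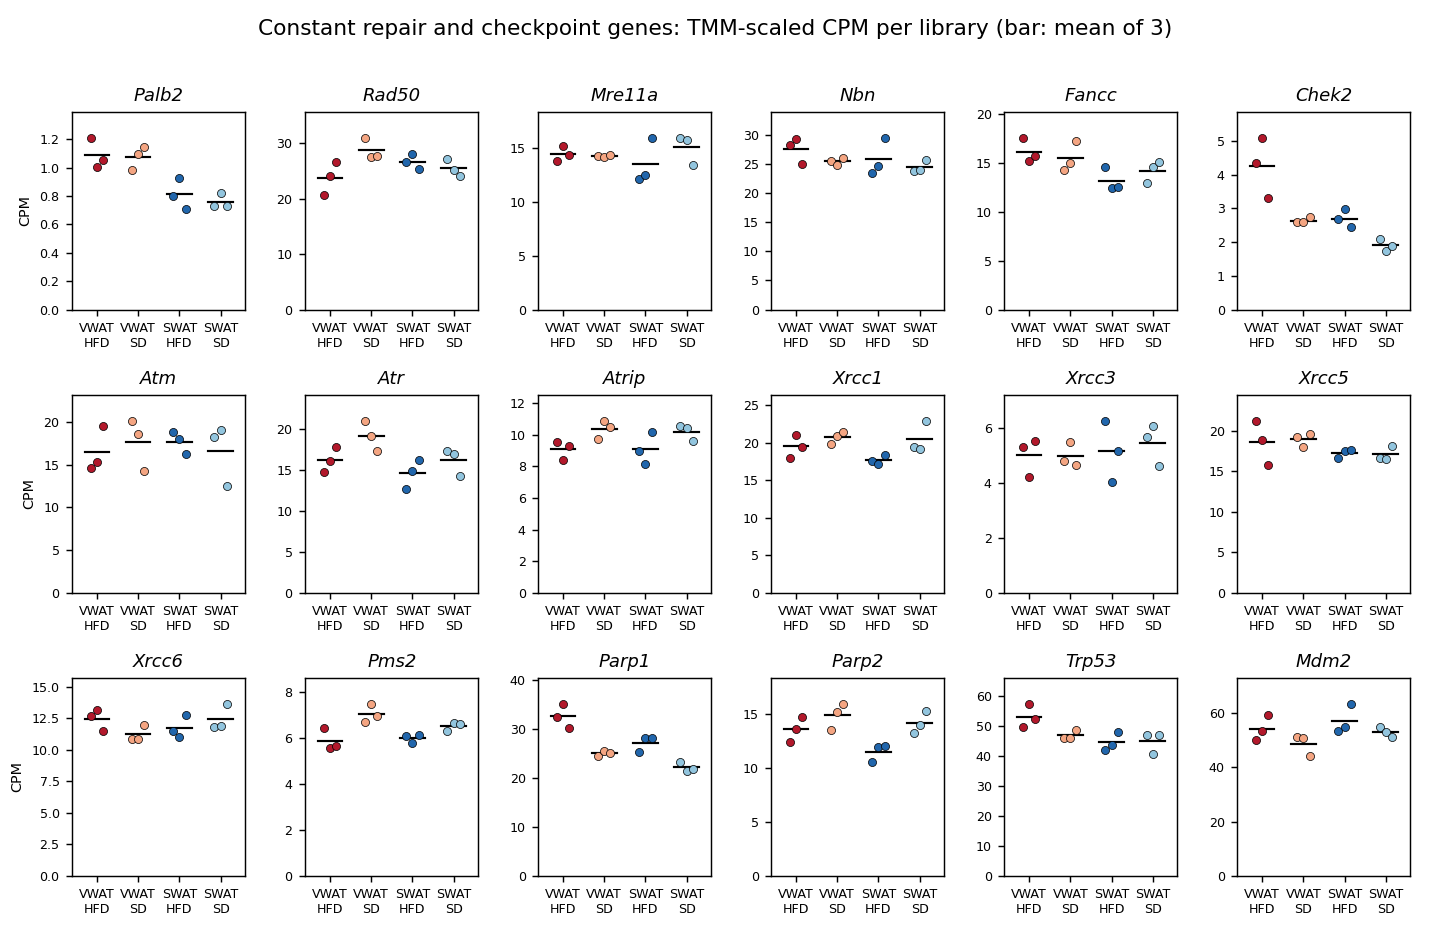
TMM-scaled CPM of the 18 constant genes (y axis, linear from 0, a scale of its own for each gene) in the 4 groups (x axis), with 1 point per library and a bar at the mean of 3. The diets overlap in VWAT for 12 of the 18 genes. All VWAT_HFD points lie above all VWAT_SD points for Chek2, Parp1 and Trp53 (as in 15.5% of all genes). They lie below for Rad50, Atrip and Pms2 (as in 17.5% of all genes).

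The visceral result depended on single libraries for its weaker members. VWAT_HFD replicate 3 was the lowest of its group for 12 of the 15 S-phase-coupled genes and replicate 2 the highest for 13, while replicate 3 still lay above all VWAT_SD libraries for 12. Without VWAT_HFD replicate 3, 12 S-phase-coupled and 3 constant genes were called, among 29.8% of all genes. The added calls were Blm, higher on HFD, and Rad50, lower on HFD. Without VWAT_HFD replicate 2, VWAT_SD replicate 1 or VWAT_SD replicate 3, 7 S-phase-coupled genes were called in each case, among 5.29%, 9.75% and 6.76% of all genes. For the constant genes the count was 0 without VWAT_HFD replicate 2 and 1 without VWAT_SD replicate 1, 2 or 3 (8.86% of all genes without replicate 2). Brca1, Rad51ap1, Rad54l, Rad54b, Exo1, Fanca and Chek1 kept their call in all 19 alternatives run, whereas Fancb lost it in 11, Bard1 and Fancd2 in 7 each, Chek2 in 5, Fanci in 4 and Parp1 in 2.

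In subcutaneous precursors none of the 33 genes passed the same test, while 1.11% of all genes did (0.967% higher and 0.147% lower in SWAT_HFD). At an unadjusted p under 0.05 there were 7 S-phase-coupled and 4 constant genes, where 14.9% of all genes were. DESeq2 called 4 S-phase-coupled genes (Brca1, Rad51ap1, Rad54b and Fanca) and Parp1, against 3.76% of all genes. The median log2 change was 0.37 over the S-phase-coupled genes, -0.040 over the constant genes and -0.0015 over all genes. For 7 S-phase-coupled genes all SWAT_HFD libraries lay above all SWAT_SD libraries, a pattern that 11.6% of all genes showed, and for none did they lie below. Of the constant genes 2 lay above (Parp1 and Chek2) and 3 below (Parp2, Xrcc1 and Pms2), where 10.2% of all genes lay below.

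Brca1 came nearest to the threshold, with 2.07, 2.41 and 2.52 CPM in SWAT_HFD, against 0.421, 1.04 and 0.871 CPM in SWAT_SD. The diets did not overlap, and the log2 change was 1.64 (SE 0.38, adjusted p = 0.0571). Rad51ap1 had 1.07, 1.33 and 1.39 CPM in SWAT_HFD, against 0.191, 0.390 and 0.504 CPM in SWAT_SD, and Rad54b had 1.07, 0.774 and 1.14 CPM in SWAT_HFD, against 0.363, 0.303 and 0.596 CPM in SWAT_SD. Both were separated by diet, with log2 changes of 1.93 (SE 0.50, adjusted p = 0.0906) for Rad51ap1 and 1.32 (SE 0.32, adjusted p = 0.0679) for Rad54b. Fanca had 0.936, 1.55 and 1.14 CPM in SWAT_HFD, against 0.555, 0.520 and 0.229 CPM in SWAT_SD, again without overlap (log2 change 1.41, SE 0.38, adjusted p = 0.0985). Rad54l and Bard1 had log2 changes of 1.19 and 0.65 (adjusted p = 0.218 and 0.291). Exo1 had 0.201, 0.340 and 0.520 CPM in SWAT_HFD, against 0.0191, 0.130 and 0.229 CPM in SWAT_SD, with overlap. The 3 SWAT_SD libraries held 12 Exo1 reads in all, so its log2 change of 1.87 (SE 0.63, adjusted p = 0.194) is imprecise.

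Of the further members called in the visceral depot, Chek1, Fancd2, Fanci and Fancb overlapped between diets here. Chek1 had 1.40, 1.18 and 1.73 CPM in SWAT_HFD, against 1.53, 0.996 and 0.733 CPM in SWAT_SD, and Fancd2 had 2.61, 3.03 and 2.16 CPM in SWAT_HFD, against 1.93, 2.81 and 2.15 CPM in SWAT_SD. Neither gene separated the diets, with log2 changes of 0.37 (SE 0.28) for Chek1 and 0.17 (SE 0.31) for Fancd2. Fanci and Fancb had log2 changes of 0.30 (SE 0.36) and 0.11 (SE 0.19). Parp1 had 25.3, 28.1 and 28 CPM in SWAT_HFD, against 23.2, 21.3 and 21.7 CPM in SWAT_SD, and Chek2 had 2.68, 2.97 and 2.43 CPM in SWAT_HFD, against 2.09, 1.73 and 1.88 CPM in SWAT_SD. Neither overlapped, with log2 changes of 0.30 (SE 0.083, adjusted p = 0.113) for Parp1 and 0.50 (SE 0.18, adjusted p = 0.228) for Chek2. Atm, Xrcc6, Msh6, Trp53 and Mdm2 had log2 changes between -0.072 and 0.11, and Trp53 averaged 44.7 ± 3.18 CPM in SWAT_HFD and 45.1 ± 3.65 CPM in SWAT_SD (SD, n = 3 each). Leaving out SWAT_HFD replicate 2, the library with leukocyte markers, left no call in this comparison among all 14310 genes (0%), so the members' count there says nothing of them. The same held without SWAT_SD replicate 1, 2 or 3, with 0 calls over all genes in each case. Leaving out VWAT_HFD replicate 3, which enters the shared estimate of the spread, gave 4 S-phase-coupled genes and 1 constant gene among 4.29% of all genes, and leaving out VWAT_HFD replicate 2 gave Brca1 alone among 1.41%.

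**Figure D4:**
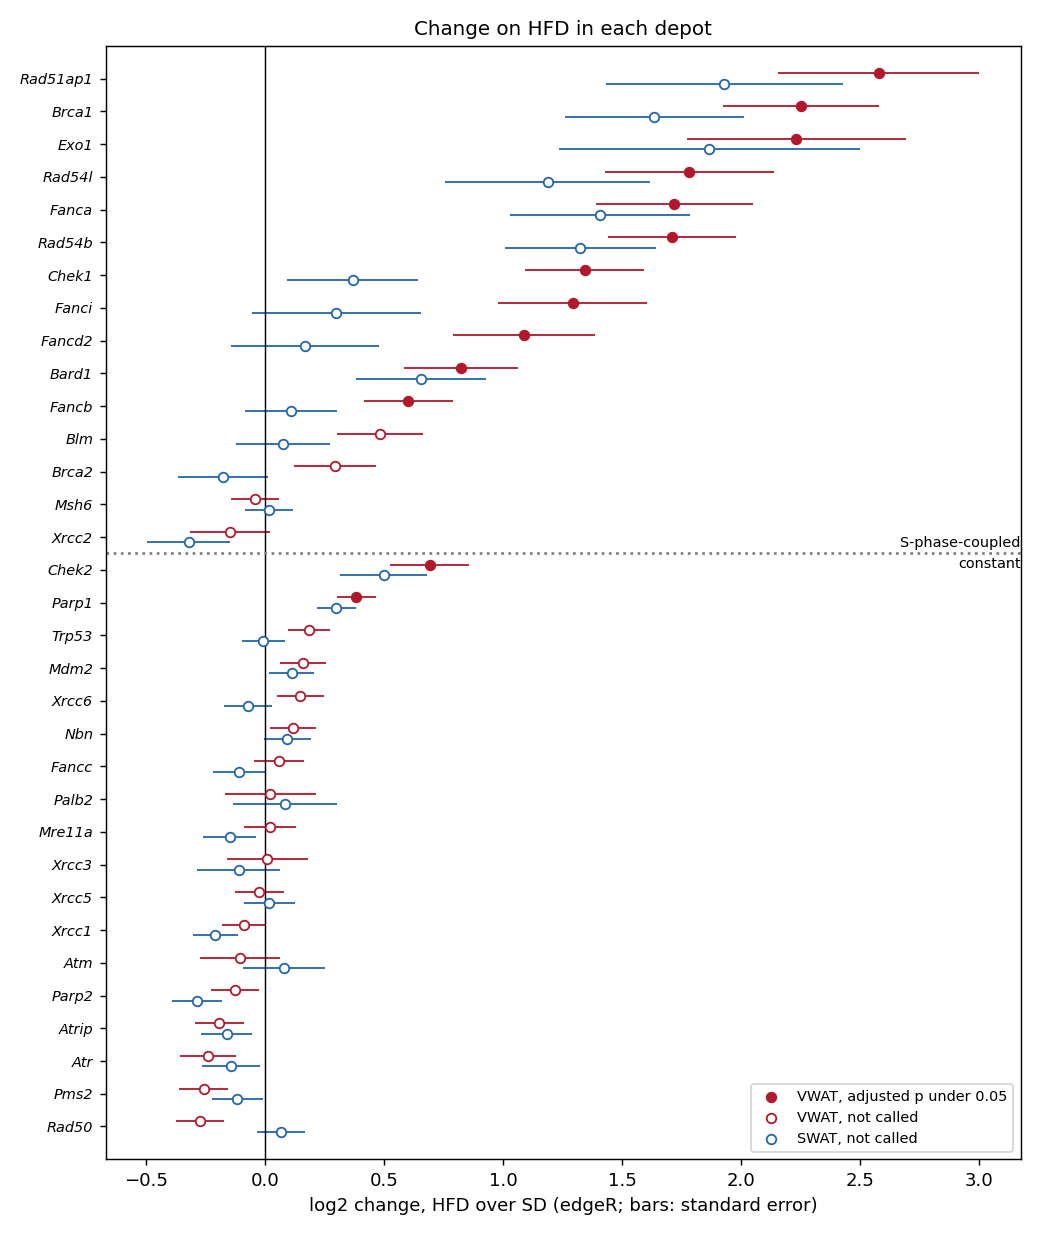
log2 change on HFD over SD (x axis) of each of the 33 genes (y axis) in VWAT and SWAT, with the standard error as a bar and filled points where the adjusted p was under 0.05. Filled points appear for VWAT in 11 S-phase-coupled genes and in Chek2 and Parp1, and all SWAT points are open.

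Whether the diet acted differently in the depots was tested with the difference of the diet changes (VWAT minus SWAT), since a call in VWAT and none in SWAT does not show it. No member was called and 0% of all genes were (0 of 14266, with 1026, or 7.19%, at an unadjusted p under 0.05, and 35 genes called by DESeq2, none of them a member). Among the members, 1 S-phase-coupled and 1 constant gene were under an unadjusted p of 0.05. Without VWAT_HFD replicate 3, 135 genes (0.942%) were called, none of them a member, and 6 S-phase-coupled and 1 constant gene were under an unadjusted p of 0.05, as were 16% of all genes. Chek1 had the lowest p, with a difference of 0.98 (SE 0.37, unadjusted p = 0.0212, adjusted p = 0.588). Fanci and Fancd2 had differences of 0.99 (SE 0.47) and 0.92 (SE 0.43), with unadjusted p of 0.0551 and 0.0521. Rad50 had a difference of -0.34 (SE 0.14, unadjusted p = 0.0320). The difference was positive for 14 of 15 S-phase-coupled and 11 of 18 constant genes, and for 7043 of the 14266 genes tested. All genes were measured in the same libraries, so this count of signs is not a test. The comparison uses the same libraries as the diet comparisons.

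Between depots on HFD, 10 of 15 S-phase-coupled genes were higher in VWAT than in SWAT and none was lower, although Msh6 was called lower in 6 of 19 alternatives. Of the constant genes, 2 of 18 were higher (Chek2 and Parp1) and none lower, while 26.8% of all genes were called, 13.4% in each direction. The median log2 difference was 1.04 over the S-phase-coupled genes, 0.097 over the constant genes and 0.017 over all genes. Chek1 had 3.22, 3.79 and 2.34 CPM in VWAT_HFD, against 1.40, 1.18 and 1.73 CPM in SWAT_HFD, and Bard1 had 3.39, 4.43 and 2.45 CPM in VWAT_HFD, against 1.40, 1.58 and 1.87 CPM in SWAT_HFD. In both, every visceral library lay above every subcutaneous library, as in 17.7% of all genes, with log2 differences of 1.10 (SE 0.26, adjusted p = 0.00628) for Chek1 and 1.05 (SE 0.25, adjusted p = 0.00691) for Bard1. Brca1, at 6.17, 8.37 and 3.68 CPM in VWAT_HFD, against 2.07, 2.41 and 2.52 CPM in SWAT_HFD, differed by 1.36 (SE 0.33, adjusted p = 0.00694). Brca2 had 3.03, 4.15 and 4.30 CPM in VWAT_HFD, against 2.61, 2.17 and 2.14 CPM in SWAT_HFD, and was called here (0.75, SE 0.18, adjusted p = 0.00829) though not for diet. Fanci had 3.05, 4.17 and 1.63 CPM in VWAT_HFD, against 1.34, 1.52 and 0.874 CPM in SWAT_HFD (1.28, SE 0.33, adjusted p = 0.0110). The groups were again separate for both genes. Exo1, Rad51ap1, Rad54l, Rad54b and Blm were also called, with log2 differences of 1.49, 1.34, 1.25, 1.04 and 0.58. Their adjusted p were 0.0300, 0.0268, 0.0223, 0.0114 and 0.0386, and the depots overlapped for Rad51ap1. The differences of Chek2 and Parp1 were 0.66 (adjusted p = 0.0123) and 0.26 (adjusted p = 0.0329). Over 19 alternatives, Blm lost its call in 12, Rad51ap1 in 7, Parp1 in 6, Exo1 in 5 and Rad54l in 4. Chek2 lost it in 3, and Fanci and Rad54b in 2 each.

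The depot comparison on HFD shares the VWAT_HFD libraries with the visceral diet comparison. Of the members not called, Msh6 had every VWAT_HFD library below every SWAT_HFD library, as in 18.2% of all genes (-0.29, adjusted p = 0.0513). Without VWAT_HFD replicate 3, 11 S-phase-coupled genes were higher and Msh6 was lower (adjusted p = 0.0379), with 2 constant genes, among 30.5% of all genes. The count of S-phase-coupled genes was 4 without VWAT_HFD replicate 2, where 21.1% of all genes were called. It was 5 without SWAT_HFD replicate 2 (19.9% of all genes) and 6 without SWAT_HFD replicate 1 or replicate 3 (21.1% and 25.6%). The count of constant genes was 0 without VWAT_HFD replicate 2 and 1 without VWAT_SD replicate 2 (24.9% of all genes) or SWAT_HFD replicate 2. Markers of the mesothelium, the lining of the visceral cavity, summed to 153 to 189 CPM in VWAT_HFD, against 33.3 to 46.4 CPM in SWAT_HFD, with 5 of 8 higher and 1 lower. Of the leukocyte markers 4 of 9 were lower in VWAT_HFD, where they summed to 7.72 to 10.8 CPM, against 13.4, 46.8 and 16.7 CPM in SWAT_HFD. Of the mural markers 5 of 10 were higher and 2 lower in VWAT_HFD, at a sum of 127 to 168 CPM, against 79.8 to 117 CPM in SWAT_HFD, and of the precursor and gate markers 1 of 10 was higher and 5 lower. Of the endothelial markers 1 of 10 was lower in VWAT_HFD, at a sum of 187 to 233 CPM, against 249 to 319 CPM in SWAT_HFD. The mitosis genes were higher in VWAT for 20 of 30. The part of these lists in the repair genes was not tested.

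On SD, 1 S-phase-coupled gene and no constant gene was called between depots, against 25.7% of all genes (13.2% higher and 12.5% lower in VWAT), with 3 S-phase-coupled and 2 constant genes at an unadjusted p under 0.05, as were 35.8% of all genes. The medians were 0.29 over the S-phase-coupled genes and 0.079 over the constant genes, and 0.018 over all genes. The mesothelial markers summed to 177 to 195 CPM in VWAT_SD, against 39.9 to 46.6 CPM in SWAT_SD. Bard1 was the called gene, at 1.60, 2.14 and 2.09 CPM in VWAT_SD, against 0.784, 1.08 and 1.37 CPM in SWAT_SD, with no overlap, as in 23.6% of genes (log2 difference 0.89, SE 0.26, adjusted p = 0.0235). The call was lost without VWAT_SD replicate 2 or 3 or SWAT_SD replicate 1 or 2, and without VWAT_HFD replicate 3 there were 2 S-phase-coupled calls and 1 constant call (Fancd2, lower in VWAT, and Chek2, higher, were added), among 30.8% of all genes. Deviations of same-numbered SD libraries of both depots from their group means correlated at 0.177, 0.178 and 0.398. The numbers were taken as pairs in this comparison, although the labels do not state pairs. With only the 6 SD libraries and the replicate number as a block, 5 S-phase-coupled and 4 constant genes were called, among 47.3% of all genes. That fit makes 2 changes together. The block alone, on all 12 libraries, left 1 and 0 calls (25.7% of all genes), and the 6 SD libraries alone, without it, gave 2 and 1 (30.1%). In the fit of the 6 SD libraries with the block, Brca1 (1.22, 1.69 and 0.923 CPM in VWAT_SD, against 0.421, 1.04 and 0.871 CPM in SWAT_SD) and Bard1 were higher in VWAT, with log2 differences of 0.81 (adjusted p = 0.0326) and 0.88 (adjusted p = 0.00330).

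The same fit held 3 genes with the opposite direction. Fancb had 2.69, 3.05 and 3.16 CPM in VWAT_SD, against 3.33, 4.05 and 4.95 CPM in SWAT_SD, and Fancd2 had 1.36, 1.57 and 1.44 CPM in VWAT_SD, against 1.93, 2.81 and 2.15 CPM in SWAT_SD. Every visceral library lay below every subcutaneous library for both genes, as in 21.4% of all genes. The log2 differences in it were -0.45 for Fancb (adjusted p = 0.0124) and -0.65 for Fancd2 (adjusted p = 0.00883), and in the fit of all 12 libraries without a block -0.46 (adjusted p = 0.104) and -0.67 (adjusted p = 0.140). Fancd2 was also called with the 6 SD libraries and no block, and neither gene with the block on all 12 libraries. Msh6 had 16.5, 18.3 and 14.4 CPM in VWAT_SD, against 20.3, 19.3 and 17.8 CPM in SWAT_SD, a smaller difference with overlap (-0.23, adjusted p = 0.0183 in that fit and 0.117 in the fit of all 12 libraries). The constant genes higher in VWAT with the 6 SD libraries and the block were Chek2, Rad50, Atr and Parp1, with log2 differences of 0.46, 0.17, 0.25 and 0.17. Palb2, at 0.986, 1.10 and 1.14 CPM in VWAT_SD, against 0.727, 0.823 and 0.733 CPM in SWAT_SD, had no overlap between depots and a difference of 0.49 in the fit of all 12 libraries (SE 0.20, adjusted p = 0.0937).

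**Figure D5:**
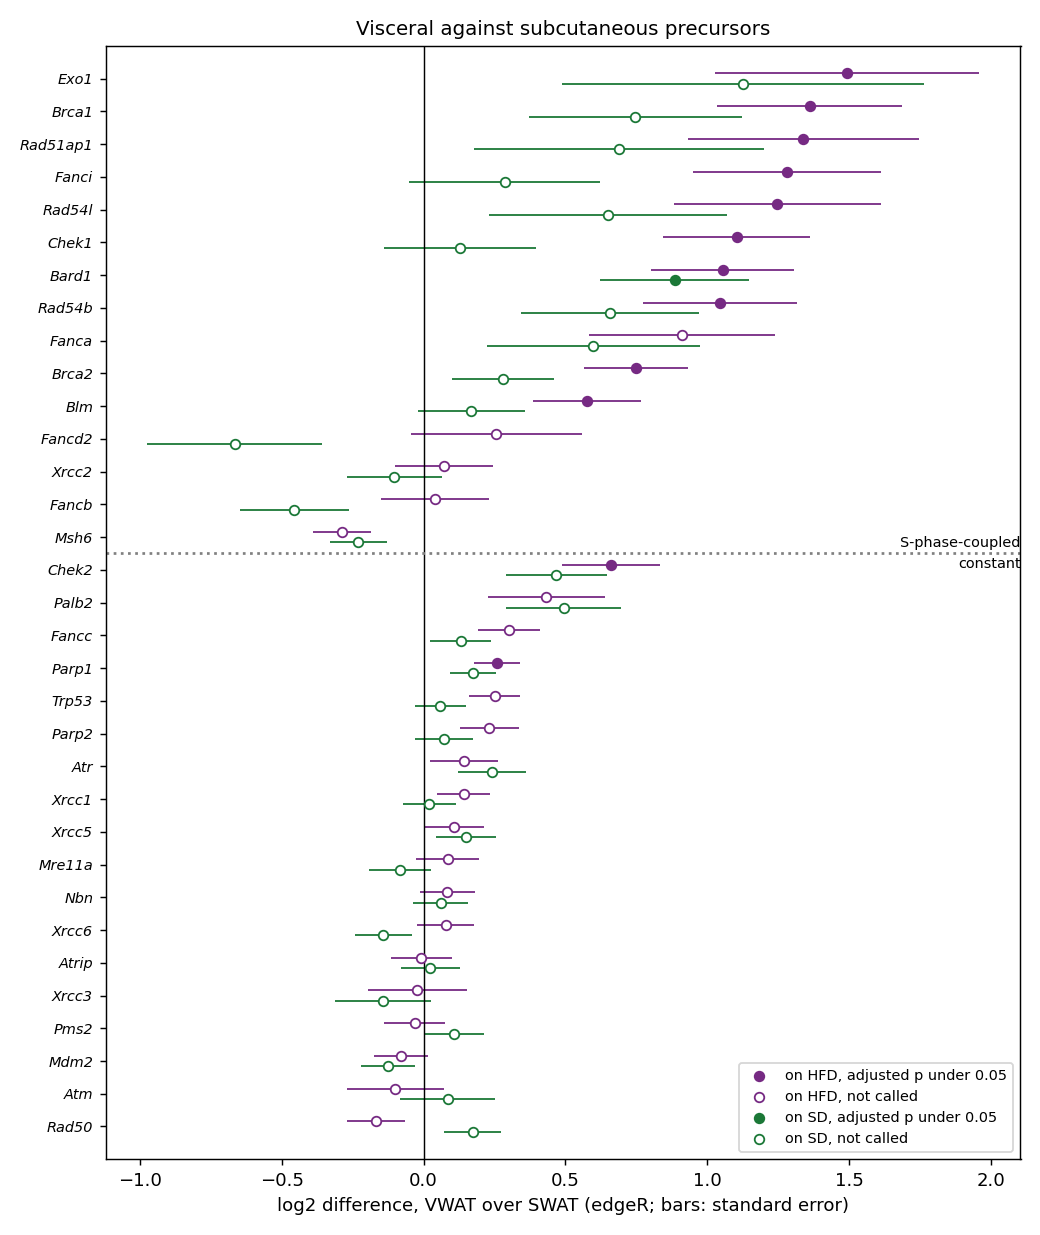
log2 difference, VWAT over SWAT (x axis), of each of the 33 genes (y axis) on HFD and on SD, with the standard error as a bar and filled points where the adjusted p was under 0.05 in the fit of all 12 libraries. On HFD 10 S-phase-coupled genes, Chek2 and Parp1 are filled, and on SD Bard1 is filled, while Fancd2 and Fancb lie left of 0.

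The wider repair network was described with further lists. Over all genes tested, 8.64% rose and 6.98% fell in visceral precursors on HFD. Of 29 other recombination and Fanconi genes, 10 rose and 1 fell in that comparison. The polymerase Polq had 2.38, 3.33 and 1.44 CPM in VWAT_HFD, against 0.765, 0.973 and 0.720 CPM in VWAT_SD. The diets did not overlap, as in 15.5% of all genes, with a log2 change of 1.54 (SE 0.28, adjusted p = 0.00379). The junction nuclease Gen1 and the Fanconi conjugating enzyme Ube2t rose by 1.81 and 2.14 on the log2 scale. In the list of end joining, excision and mismatch repair, 3 of 36 genes rose and 4 fell. The risers were the glycosylases Neil3 (2.87) and Ung (1.78) and the replicative ligase Lig1 (1.03), and the gene with the lowest p among those that fell was Mlh3 (-0.49, adjusted p = 0.0167), a mismatch repair gene. Of 29 damage signalling genes 7 rose and 1 fell, led by Clspn, the adaptor that activates CHEK1 (2.51, adjusted p = 0.000855), the mitotic phosphatase Cdc25c (3.24), the histone H2afx (1.01) and the ATR activator Topbp1 (0.42), which is also in the recombination list. In SWAT these lists held 0, 1 and 0 called genes, where 1.11% of all genes were called. The 1 was Neil3 (1.67, 2.48 and 2.48 CPM in SWAT_HFD, against 0.249, 0.433 and 0.321 CPM in SWAT_SD, log2 change 2.75, adjusted p = 0.0233). Its call was lost, with those of all other genes, without SWAT_HFD replicate 2 or any 1 SWAT_SD library.

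Targets of p53 were called in both directions. Of 28 tested, 4 rose and 3 fell in VWAT on HFD, with a median log2 change of 0.086. Over all genes tested, 8.64% rose and 6.98% fell there. The risers with the lowest p were Ckap2, a spindle gene (2.88, adjusted p = 0.000808), Sesn2, a stress-induced regulator of growth signalling (1.26, adjusted p = 0.000925), and the death receptor Tnfrsf10b (0.87, adjusted p = 0.0147), and Xpc, which recognises bulky damage, fell (log2 change -0.55, adjusted p = 0.00720). Cdkn1a, the cell cycle inhibitor p21, had 105, 99 and 95 CPM in VWAT_HFD, against 120.1, 147 and 108 CPM in VWAT_SD, and 191, 202 and 211 CPM in SWAT_HFD, against 288, 282 and 214 CPM in SWAT_SD. All HFD libraries lay below all SD libraries in each depot, as in 17.5% of all genes in VWAT and 10.2% in SWAT. Neither change was called (-0.33, adjusted p = 0.104 in VWAT and -0.37, adjusted p = 0.205 in SWAT). Visceral cells had less Cdkn1a than subcutaneous cells on HFD (-1.02, adjusted p = 5.82e-05) and on SD (-1.06, adjusted p = 3.98e-05). Ccng1 and Gadd45a, 2 further targets, had log2 changes of 0.17 and 0.092 in VWAT, neither called.

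The S-phase-coupled repair genes were set beside genes of copying and division. Of 33 replication genes, 23 rose in VWAT and 1 in SWAT on HFD, and of 30 mitosis genes, 30 rose in VWAT and 25 in SWAT. Over all genes tested, 8.64% rose in VWAT and 0.967% in SWAT. The replication genes with the lowest p in VWAT were the repressor E2f8 (3.03), the chromatin factor Uhrf1 (1.70), the origin factor Mcm10 (2.28) and the polymerase subunit Pole (1.60), and E2f8 was the gene called in SWAT (2.50, adjusted p = 0.0314). The mitosis genes with the lowest p were Aspm (3.17), Prc1 (2.97) and Top2a (3.18), with roles at the spindle, the midzone and in untangling DNA, and Mki67. The proliferation marker Mki67 had 61, 114 and 32.4 CPM in VWAT_HFD, against 9.46, 10.4 and 5.59 CPM in VWAT_SD, and 25.9, 36.5 and 31.4 CPM in SWAT_HFD, against 3.25, 5.0 and 4.17 CPM in SWAT_SD. It rose in both depots, by 3.03 (adjusted p = 0.000793) in VWAT and 2.93 (adjusted p = 0.0189) in SWAT on the log2 scale. The SWAT calls of Mki67, E2f8 and the mitosis genes were lost without SWAT_HFD replicate 2 or any 1 SWAT_SD library. No gene at all was called in SWAT in those fits. The helicase gene Mcm5 rose in VWAT (1.44, adjusted p = 0.00774) and was not called in SWAT (0.42, adjusted p = 0.594), and the clamp gene Pcna was called in neither (0.43 in VWAT and -0.091 in SWAT). By library, the mean log2 CPM of the S-phase-coupled genes less that of the replication genes was -1.45 to -1.37 in VWAT_HFD, against -1.55 to -1.52 in VWAT_SD, and -1.64 to -1.40 in SWAT_HFD, against -1.95 to -1.77 in SWAT_SD. The HFD libraries lay above the SD libraries on this difference in both depots.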

How the data were processed

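The deposited table holds raw, whole-number counts of reads per gene in 12 libraries. Strand-marked (dUTP) libraries of poly(A) RNA were sequenced as single reads of 75 bp, per the labels' protocols. Per the submitters' processing notes, TopHat, HTSeq and the mouse build mm9 were used, with versions and the strand setting of the counting not given in the sources used here. Overlapping and antisense genes are therefore uncertain. The 3 entries that name no gene, left out of library sizes and tests, held 3.53 to 5.57% (in no gene), 1.71 to 1.95% (ambiguous) and 14.98 to 20.81% (not uniquely aligned).

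From the counts, genes were filtered with filterByExpr by group (14266 kept, 132 removed) and compared by the quasi-likelihood F test of edgeR (4.0.16, in R 4.3.3; TMM, robust) in 1 fit of 4 groups over 12 libraries. There were 5 contrasts. P-values were adjusted by the Benjamini-Hochberg method across the 14266 genes, and a gene was called when its adjusted p was under 0.05. CPM are TMM-scaled, and log2 CPM use a prior count of 2. The SE of a log2 change is the change divided by the square root of its F value. An exact test of 3 against 3 cannot go below p = 0.1, so none was used. The labels do not say that replicates came from separate cohorts, so p-values measure the spread between these pooled libraries; log2 CPM of libraries within a group correlated at 0.983 to 0.995. The fit was tested on simulated data.

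The members, the classes and the other lists were chosen with earlier results of these data known. Values per library were given for the 12 members with the lowest p in VWAT and for 10 members fixed by name, for up to 6 members of lowest p in each depot comparison, and up to 4 genes of lowest p of each other list; further genes were named after their values were seen, and 1 gene of the recombination list is not reported here. Of the genes listed, Rmi2, Pidd1, Fen1, Krt8 and Bnc1 were not in the table, and Cdkn2a and Cd3e did not pass the filter. Exon lengths and overlaps come from GENCODE M21 and promoters from RefSeq GRCm38.p6, not the build of the counts.

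The replicate numbers are shared between groups. Deviations of same-numbered libraries from their group means correlated at 0.177, 0.178 and 0.398 between VWAT_SD and SWAT_SD, and were taken as pairs there. In every other pair of groups compared at least 1 correlation was under 0.1, though replicate 2 had 0.184 between VWAT_HFD and SWAT_HFD. Different-numbered libraries were not correlated, so pairing is neither shown for SD nor excluded elsewhere. Alternatives were DESeq2 size factors, library size alone, no filter, DESeq2's Wald test (1.42.0), limma voom (3.58.1), only the libraries compared, the replicate block, and each library left out in turn. The fit of the 6 SD libraries with the block was added after the data were seen.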

Additional observations from a re-analysis of the deposited data

How the results depend on the processing

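No called change reversed in any alternative. Over 33 members, 5 comparisons and all alternatives, 2985 values stayed on the same side of the threshold, 81 lost a call and 68 gained one. Some values called in neither the main fit nor the alternative changed sign, among them those of Palb2, Xrcc5 and Msh6 for diet in VWAT. For diet in VWAT, 11 S-phase-coupled and 2 constant genes were called. The S-phase-coupled count was 7 with only the libraries compared (8.87% of all genes called) and 7 to 12 with a library left out (5.29 to 29.8%). The constant count was 1 with only the libraries compared and 0 to 3 with a library left out. It was 3 with library size alone (Chek2 higher, Rad50 and Pms2 lower), where 18.4% of all genes were called. For diet in SWAT, where 0 were called, DESeq2 called 4 S-phase-coupled and 1 constant genes (3.76% of all genes called). Only the libraries compared gave 2 and 0 (2.57%), and the replicate block 1 and 0 (1.73%). Leaving a library out gave 0 to 4 and 0 to 1 (0 to 4.29%). Between depots on HFD (10 and 2 called), the S-phase-coupled count was 4 to 12 with a library left out (19.9 to 30.5% of all genes called). The constant count was 12 with library size alone (48.7% of all genes called), 4 with DESeq2 (29%) and 0 with only the libraries compared (19.9%). It was 0 to 2 with a library left out. Between depots on SD (1 and 0 called), the counts were 4 and 9 with library size alone (37.8% of all genes called). They were 2 and 1 with only the libraries compared (30.1%). The fit of the 6 SD libraries with the replicate block gave 5 and 4 (47.3%), and the block alone 1 and 0 (25.7%). With a library left out the counts were 0 to 2 and 0 to 1 (20 to 30.8%). Library size alone also moved the median of all genes to -0.126 and -0.177 in the VWAT and SWAT diet comparisons and to 0.301 and 0.236 between depots on HFD and SD, against -0.017, -0.0015, 0.017 and 0.018 with TMM, so its calls carry that shift. Over all genes it gave 799 higher and 1822 lower calls for diet in VWAT (1232 and 996 with TMM), 101 and 162 in SWAT (138 and 21), 5830 and 1124 between depots on HFD (1918 and 1912) and 4279 and 1118 on SD (1880 and 1789). The cause of the other changes was not tested. No S-phase-coupled or constant gene was called for the difference of the diet changes in any alternative, but without VWAT_HFD replicate 3 the calls over all genes were 135 instead of 0. That comparison was not run with only the libraries compared. In the other comparisons the replicate numbers were not taken as pairs, a point the labels do not settle. With the replicate block the VWAT diet counts stayed at 11 and 2 (16% of all genes called). The depot counts on HFD were 9 and 2 with it (26.5%). Depth limits Exo1 most, with 12 reads over SWAT_SD.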
